A study of Drosophila melanogaster with 54 samples.

Results

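Embryos of Drosophila melanogaster at stage 15 were set against embryos at stage 4, the latest and the earliest of 8 sampled stages. The labels put 8 embryos in stage 15 and 5 in stage 4, so 13 of the 54 embryos of the series enter the comparison. Each library holds the RNA of 1 embryo, which was picked by hand, staged by eye and lysed whole, after which ribosomal RNA was depleted. The labels name no strain, genotype, treatment, sex or parents for either stage. Embryos are named here by the letters of their titles, which are A, B, C, D, F, G, H and I at stage 15 and B, C, D, G and H at stage 4. Nothing in the labels says that embryos of a stage came from separate collections, so p-values measure only the spread between these embryos.

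A fly embryo of stage 4 is a syncytium whose nuclei divide rapidly and in step without cell membranes between them. Most of its RNA was laid into the egg by the mother, and transcription of its own genome is only beginning. By stage 15 the germ layers have formed organs: muscles are attached, the nerve cord is wired, the gut is closing and the epidermis lays down cuticle, while most cells have stopped dividing. Maternal RNAs are degraded in between, and the dosage compensation complex raises transcription from the X chromosome of males. In whole embryos, fewer cells of a type and less RNA per cell cannot be told apart, so each value below is a level in the embryo as a whole.

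Reads counted in genes numbered 4575463 to 9421310 per embryo at stage 15 and 4410384 to 12863155 at stage 4. Levels are given as CPM, gene counts relative to the library's total after TMM scaling. The scaled total was 0.917 to 0.986 of the gene counts at stage 15 and 1.158 to 1.235 of them at stage 4. CPM at stage 4 are therefore lower, and at stage 15 higher, than plain shares of the gene counts would be. Of the 8 stage 15 libraries, 4 (A, B, F and G) were non-directional and kept no strand information, and all 5 stage 4 libraries were directional. Counts without regard to strand were therefore used for both stages. A gene is marked below as uncertain where, in directional libraries, under 80% of its reads came from its own strand, because reads of an overlapping gene can be among them.

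Most genes differed between the stages. Among 9783 genes tested with edgeR's quasi-likelihood test, 5164 rose (52.8%) and 3489 fell (35.7%) at an adjusted p under 0.05, which leaves 1130 not called. Together 88.4% of the genes were called, so a call alone sets no gene apart, and counts of gene groups below are read against these shares. The stages did not overlap in any embryo for 77.4% of the genes. The median log2 change over all genes tested was 0.46 with TMM scaling. It was 0.70 with DESeq2's size factors and 0.14 with library totals alone, so small changes depend on the scaling. Larger changes ran mostly upward: 3455 genes rose and 874 fell by more than 2 on the log2 scale, and 2423 rose and 120 fell by more than 5.

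More genes reached 10 CPM at stage 15 than at stage 4. CPM are levels relative to a scaled library total, so RNA gained or lost per embryo was not measured, and the counts at 10 CPM depend on the scaling. A level of 10 CPM or more was reached by 6702 genes at stage 15 and by 5746 at stage 4, with 5057 genes common to both. At stage 15, 1269 genes had at least 10 CPM while having under 1 CPM at stage 4, and 75 genes had the reverse pattern. Of genes at 10 CPM or more at stage 15, 385 had 0 reads in all 5 stage 4 embryos. In the other direction 1 gene, Cyp6a19, had 0 reads in all 8 stage 15 embryos and at least 10 CPM at stage 4. Genes without a read at stage 4 passed the filter on low counts only through other stages, so they could not be called lower. For such genes a count of rises in a list below carries little information.

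**Figure D1:**
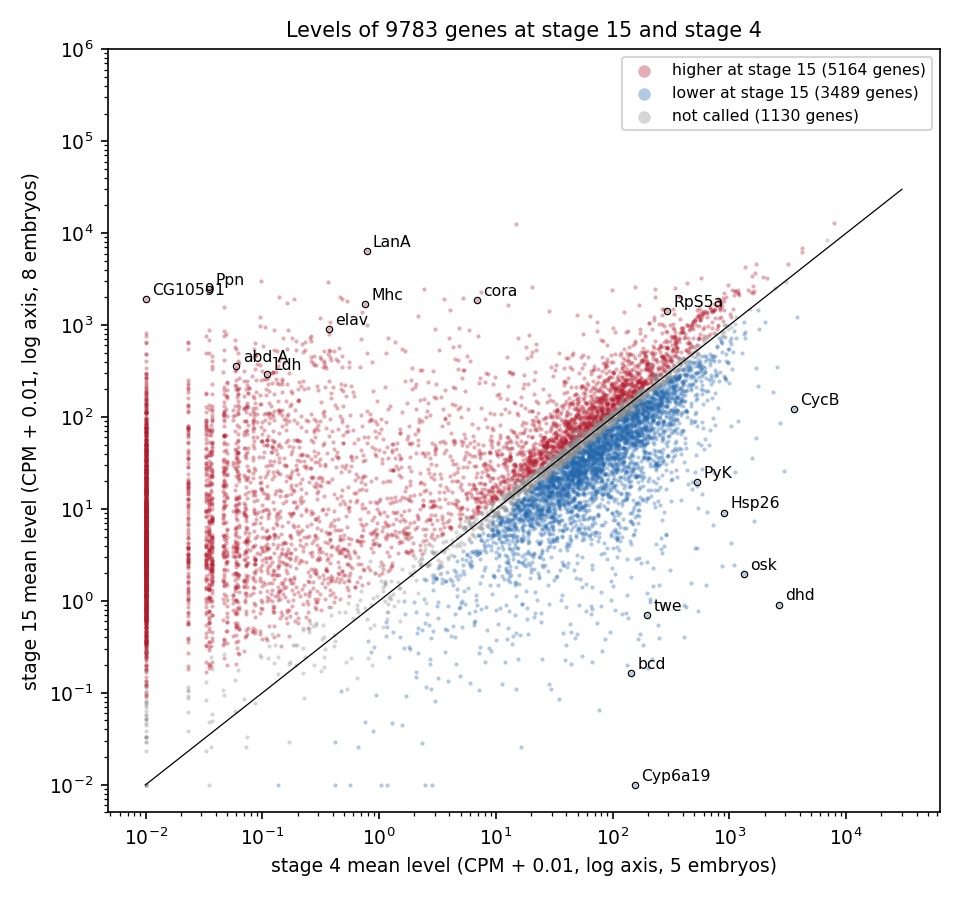
Mean level of each of the 9783 tested genes at stage 15 (vertical axis, 8 embryos) and stage 4 (horizontal axis, 5 embryos), in CPM plus 0.01 on log axes, with the line of equal levels. The 5164 genes that rose include a column on the left of genes near 0 at stage 4, and the 3489 that fell lie mostly within the cloud of genes present at both stages.

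The measures of whole libraries moved with this. At an equal depth of 4400000 gene reads, 11821 ± 176 genes had a read in stage 15 embryos and 7857 ± 57.0 in stage 4 embryos (SD, n = 8 and 5, exact permutation test, two-sided p = 0.001554, adjusted 0.00194 over 5 measures, the smallest p that 1287 splits allow being 0.001554). The lowest stage 15 embryo had 11567 genes and the highest stage 4 embryo had 7938. Reads assigned to no gene, which lie in introns or outside the annotation, made up 4.30 ± 0.995% of uniquely mapped reads at stage 15 and 0.328 ± 0.0195% at stage 4 (exact permutation p = 0.001554, adjusted 0.00194). The 10 most abundant genes of each library held 6.73 ± 0.524% of gene counts at stage 15 and 5.07 ± 0.276% at stage 4 (exact permutation p = 0.001554, adjusted 0.00194). The share of mitochondrially encoded genes was 2.77 ± 0.440% at stage 15 and 2.44 ± 0.352% at stage 4, with overlapping embryos (exact permutation p = 0.190, adjusted 0.190).

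**Figure D2:**
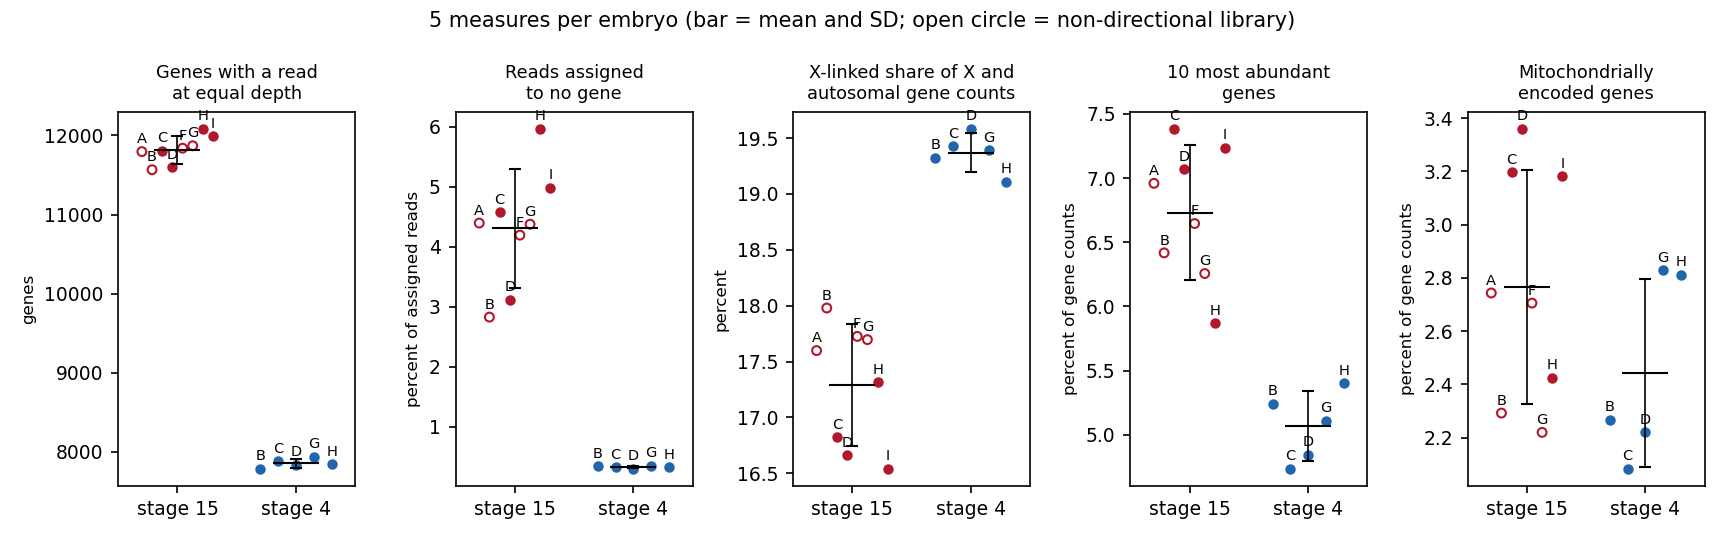
Values of 5 measures in each embryo, with stage 15 on the left and stage 4 on the right of each panel, letters naming embryos, bars showing mean and SD, and open circles marking non-directional libraries. The stages do not overlap in 4 of the 5 measures and overlap in the mitochondrially encoded share, and the vertical axes do not start at 0.

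The largest rises were in genes with hardly a read at stage 4. CG10591, on 3L at 5598557 to 5599692 of the dm6 assembly and with no role stated in the annotation, had 1650, 2006 and 2088 CPM (lowest, median and highest) in stage 15 embryos and 0 reads in each of the 5 stage 4 embryos. This makes it at least 28740-fold higher at stage 15, counted against 3 reads over the whole of stage 4. All 8 stage 15 embryos lay within a narrow band. Ppn, which encodes the extracellular matrix protein papilin made by hemocytes, had 2030, 2546 and 2776 CPM at stage 15 and 1 read in 1 stage 4 embryo. The ratio was 110500, with a 95% interval of 19840 to 4366000 that covers counting error only.

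Others of the 12 genes with the largest called changes were as far apart. The chitin deacetylases serp and verm, which modify the chitin that sets the length of tracheal tubes, averaged 638.9 ± 98.1 and 855.4 ± 119 CPM at stage 15, with 0 reads and 1 read at stage 4. sha, which builds the actin-rich hairs and denticles of the epidermis, averaged 810.6 ± 112 CPM at stage 15 against 0 reads at stage 4, at least 12060-fold higher. fne, a neuronal RNA-binding protein related to elav, averaged 486.3 ± 67.2 CPM at stage 15 against 0 reads at stage 4, at least 7236-fold higher. ImpE2, an ecdysone-inducible gene, averaged 1575 ± 547 CPM at stage 15 against 1 read at stage 4. Neurochondrin averaged 654.9 ± 54.3 CPM at stage 15 with 0 reads at stage 4, and nw averaged 881.8 ± 157 CPM with 1 read at stage 4. CG9184 averaged 3003 ± 324 CPM at stage 15 and had 3 reads at stage 4. In contrast to these, nur and CG12009 varied several-fold within stage 15, at 101.3, 828.4 and 1118 CPM (lowest, median and highest) for nur and at 490.2 ± 253 CPM for CG12009, with 0 reads of either at stage 4. Named for 0 reads at stage 4, the transmembrane proteoglycan gene kon, which takes part in muscle attachment, averaged 411.0 ± 54.7 CPM at stage 15 and had 0 reads at stage 4.

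The deepest falls were in transcripts that mothers place in the egg. dhd, a thioredoxin of the female germline that helps to strip protamines from sperm chromatin, had 0.300, 0.527 and 2.53 CPM (lowest, median and highest) in stage 15 embryos, against 1956, 1978, 2903, 3099 and 3237 CPM in the stage 4 embryos H, G, C, D and B. It fell by 11.65 ± 0.74 on the log2 scale (SE, adjusted p = 1.64e-20), and its stage 4 embryos differed among themselves. alphaTub67C, the maternal alpha-tubulin, averaged 0.762 ± 0.376 CPM at stage 15 and 539.5 ± 139 CPM at stage 4. BigH1, the linker histone of the early embryo, averaged 0.388 ± 0.273 CPM at stage 15 and 250.4 ± 18.2 CPM at stage 4. CG4991, CG4476, CG44005, CG5568 and APC7 completed the 12 lowest, with means of at most 0.390 CPM at stage 15 and of 77.1 to 405.5 CPM at stage 4. Cyp6a19, a cytochrome P450 gene, had 0 reads in all stage 15 embryos and 66.3, 91.1, 106.8, 167.6 and 338.8 CPM in the stage 4 embryos B, H, D, G and C. It was at least 2613-fold lower at stage 15, and its stage 4 values spread over a 5-fold range.

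**Figure D3:**
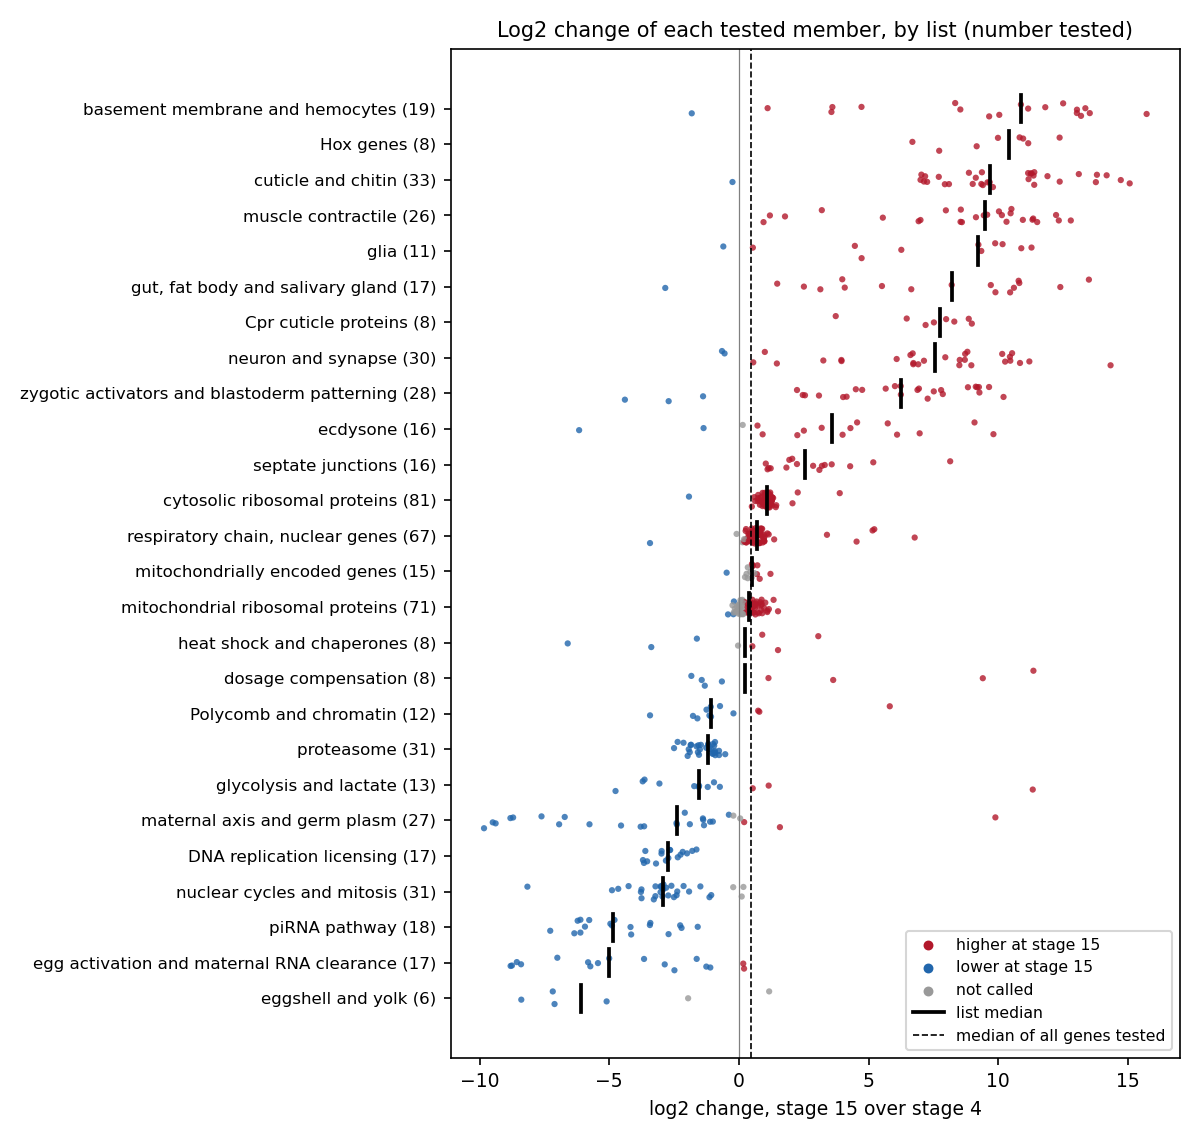
Log2 change, stage 15 over stage 4, of each tested member of 26 gene lists, ordered by list median, with the number tested in brackets, black bars at the list medians and a dashed line at 0.46, the median of all genes. Lists of organ genes lie between 2.55 and 10.87, and lists of maternal and cell cycle genes between -6.11 and -2.40. Medians of ribosomal and mitochondrial genes, at 0.39 to 1.10, lie near the line, and that of proteasome genes, at -1.19, lies under it.

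Maternal determinants fell, with exceptions. Of 27 tested genes of the germ plasm and the maternal axis systems, 22 fell and 3 rose, with a median log2 change of -2.40. osk, which assembles the germ plasm at the posterior pole, had 0.690, 1.92 and 2.86 CPM (lowest, median and highest) at stage 15, against 1087, 1315, 1382, 1435 and 1468 CPM in the stage 4 embryos H, B, G, C and D. It fell by 9.38 ± 0.43 on the log2 scale (SE, adjusted p = 2.54e-26). bcd, the anterior determinant, averaged 0.155 ± 0.191 CPM at stage 15 and 143.8 ± 19.7 CPM at stage 4. pgc, which holds transcription down in the germ cells, averaged 0.221 ± 0.250 CPM at stage 15 and 218.7 ± 17.1 CPM at stage 4, and swa, which helps to localize bcd RNA, averaged 0.901 ± 0.240 and 409.2 ± 18.4 CPM.

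The 3 that rose were tsl, ndl and tud. tsl, the maternal trigger of the terminal system, averaged 22.4 ± 5.08 CPM at stage 15 and was without a read at stage 4, a difference of at least 333.3-fold. ndl, a protease of the dorsoventral cascade, averaged 5.98 ± 1.51 CPM at stage 15 and 1.999 ± 1.501 CPM at stage 4. tud, whose product is part of the germ plasm, averaged 572.4 ± 25.9 CPM at stage 15 and 497.5 ± 119 CPM at stage 4, a log2 change of 0.20 ± 0.09 (SE, adjusted p = 0.0377) that turned to -0.12 with library totals alone. grk and trk are uncertain, with 33.7 and 34.6% of their reads on their own strand. cup was listed at 0 reads in all 13 embryos, as were BicC and Hsp22 of other lists, and all were at 0 CPM in each of the 8 stages. Reads set aside as ambiguous between genes numbered 232547 to 663151 per library of stages 15 and 4. Whether reads of these genes are among them was not tested, so 0 reads here is not shown to mean absence.

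Egg activation, RNA clearance and piRNA genes fell more evenly. Of 17 tested genes of egg activation and of the clearance and translational control of maternal RNA, 15 fell and 2 rose (median -5.0). wisp, the cytoplasmic poly(A) polymerase of the egg, averaged 2.46 ± 0.919 CPM at stage 15 and 1090 ± 56.6 CPM at stage 4, and mtrm, an inhibitor of Polo in the oocyte, averaged 0.845 ± 1.18 and 427.6 ± 14.2 CPM. gnu and plu, 2 regulators of the Pan gu kinase, averaged 0.427 ± 0.199 and 0.0749 ± 0.106 CPM at stage 15, against 172.1 ± 18.3 and 34.4 ± 1.57 CPM at stage 4. The 2 that rose, bel and brat, changed by 0.20 ± 0.09 and 0.17 ± 0.08 on the log2 scale (SE, adjusted p = 0.0341 and 0.0481), and both turned negative with library totals alone (-0.12 and -0.15).

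All 18 tested genes of the piRNA pathway, which silences transposons in the germline, fell (median -4.85, none overlapping). The summed level of the 18 ran between 68.6 and 94.5 CPM in stage 15 embryos and between 2235 and 2422 CPM in stage 4 embryos. krimp fell to 1.44 ± 0.895 CPM at stage 15, against 221.9 ± 8.85 CPM at stage 4, and del, shu and tej fell by 6.35, 6.22 and 6.11 on the log2 scale. cuff is uncertain, with 36.1% of reads on its own strand. Of 15 genes on a list named eggshell and yolk, 6 were tested and 4 fell, which were fs(1)N, fs(1)Ya, fs(1)M3 and clos. That name does not describe every member, and no yolk protein, Vm or Cp gene was among the 4. The 9 untested genes, the Vm and Cp genes among them, did not pass the filter on low counts. clos is uncertain, with 42.5% of reads on its own strand. fs(1)N and fs(1)Ya averaged 3.79 ± 0.906 and 0.860 ± 0.655 CPM at stage 15 against 523.7 ± 68.0 and 269.8 ± 44.2 CPM at stage 4. The yolk protein genes Yp2 and Yp3 were not called.

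Genes of the division cycle fell. Of 31 tested genes of the nuclear cycles and mitosis, 28 fell and none rose (median -2.92), although fzr was called higher with DESeq2's size factors and 2 genes, dap and fzr, in a fit of the 13 embryos only. All 17 tested replication genes fell (median -2.72). CycB, the B-type cyclin, had 84.0, 116.8 and 162.4 CPM (lowest, median and highest) in stage 15 embryos and 3318, 3528, 3557, 3735 and 3819 CPM in the stage 4 embryos B, D, C, G and H. It fell by 4.90 ± 0.13 on the log2 scale (SE, adjusted p = 7.78e-37), and no stage 15 embryo came near a stage 4 embryo. The kinase gene aurA averaged 5.10 ± 2.40 CPM at stage 15 and 96.8 ± 3.51 CPM at stage 4. Cdc45, part of the replicative helicase, averaged 13.6 ± 0.678 and 172.2 ± 34.5 CPM, and RnrL, the large subunit of ribonucleotide reductase, averaged 49.5 ± 8.36 and 574.6 ± 40.5 CPM. Orc6, of the origin recognition complex, averaged 2.11 ± 0.677 and 27.7 ± 2.22 CPM.

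The 3 not called were Cks85A and the cell cycle brakes dap and fzr, which were looked at because the count was small. dap, the Cdk inhibitor, changed by 0.11 and fzr, which directs the anaphase-promoting complex, by 0.17 on the log2 scale. dap and fzr averaged 261.1 and 203.0 CPM at stage 15 and 242.3 and 179.9 CPM at stage 4. Cks85A is uncertain, with 33.9% of reads on its own strand.

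Within stage 15 the summed levels of mitotic, Osiris and thick filament genes differed between embryos. The 17 mitotic kinase and checkpoint genes summed to 308.2 and 382.2 CPM in embryos F and G, to 624.9 and 639.4 CPM in C and D, and to 430.9 to 517.6 CPM in the other 4. The 11 Osiris genes, a cluster of transmembrane protein genes active when cuticle forms, summed to 2623 and 3627 CPM in F and G, to 797.3 and 381.8 CPM in C and D, and to 1017 to 1457 CPM in the other 4. The 5 thick filament genes summed to 3664 and 3625 CPM in F and G, to 1860 and 1284 CPM in C and D, and to 1905 to 2766 CPM in the others. F and G were thus highest in Osiris and thick filament genes and lowest in mitotic genes, and D was at the other end of all 3. These sums were chosen after their values were seen. F and G are non-directional libraries, as are A and B. Thick filament sums ran from 2186 to 3664 CPM in the 4 non-directional stage 15 libraries and from 1284 to 2766 CPM in the 4 directional ones, and the part of library kind in these sums was not tested.

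**Figure D4:**
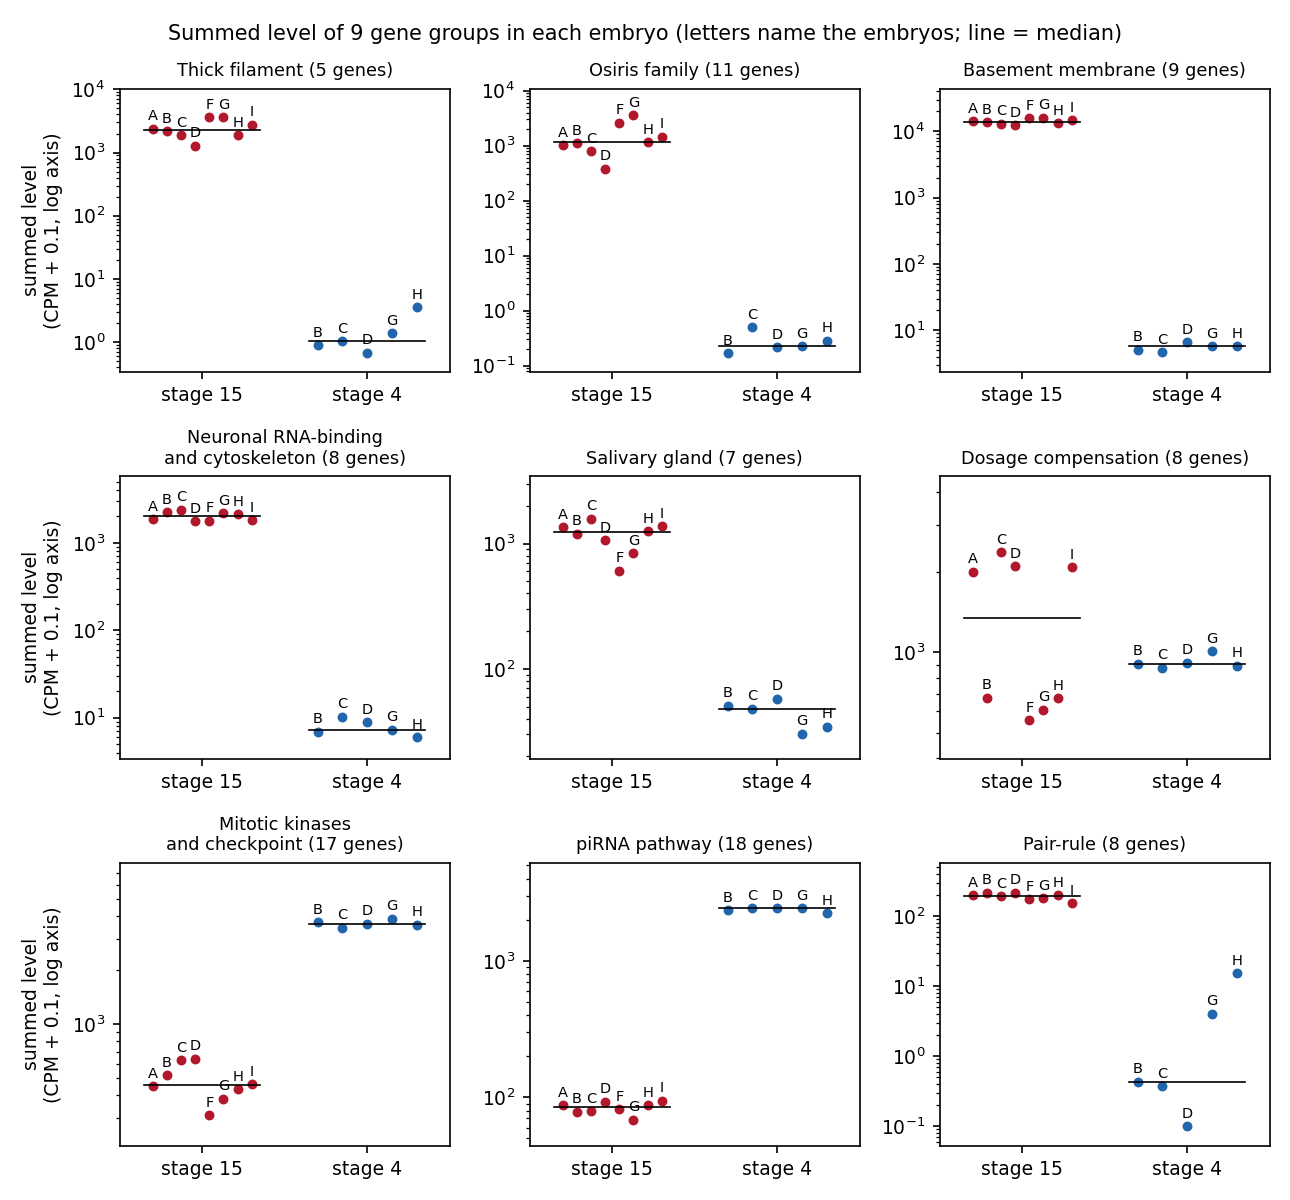
Summed level of 9 gene groups in each embryo, in CPM plus 0.1 on log axes, with stage 15 on the left and stage 4 on the right of each panel, letters naming embryos and lines at the medians. Stage 15 embryos F and G lie high for thick filament and Osiris genes and low for mitotic genes, the dosage compensation sum splits stage 15 into A, C, D and I against B, F, G and H, and stage 4 embryos G and H lie above the other 3 in pair-rule genes.

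Zygotic patterning genes were mostly higher at stage 15 than at stage 4. Of 28 tested activators and patterning genes of the blastoderm, 25 rose and 3 fell. Of the 28, 8 had at most 3 reads over a whole stage. The median was 6.24. It was 6.13 with genes without a read in a stage set to their bound, which is counted against a floor of 3 reads. brk, a repressor in the dorsoventral system, averaged 108.7 ± 12.3 CPM at stage 15 and 0.111 ± 0.0854 CPM at stage 4. grh, a transcription factor that also drives the epidermal barrier, averaged 347.5 ± 26.4 CPM at stage 15 and 0.538 ± 0.334 CPM at stage 4. dpp, the BMP ligand, averaged 55.9 ± 5.43 CPM at stage 15 with 3 reads at stage 4, and slp2 averaged 54.1 ± 9.52 CPM with 1 read at stage 4. Of the genes of this list that rose, only Trl had its highest stage mean at stage 15. The others were higher at a stage between the ends. ftz had 182.8 CPM at stage 5 and 0.910 CPM at stage 15, prd had 245.8 CPM at stage 6 and 2.51 CPM at stage 15, and rho had 111.3 CPM at stage 5 and 94.0 CPM at stage 15.

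The 3 that fell were zen, hb and zld. hb, a gap gene that is also loaded maternally, averaged 40.8 ± 10.9 CPM at stage 15 and 265.6 ± 20.3 CPM at stage 4, and zld, the maternal activator of the zygotic genome, averaged 254.0 ± 44.0 and 662.8 ± 67.8 CPM. zen, which specifies the amnioserosa, had 2 reads over stage 15 and 0.199, 0.345, 0.535, 2.14 and 4.59 CPM in the stage 4 embryos B, D, C, G and H.

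Early zygotic transcripts set stage 4 embryos apart from each other. The 8 pair-rule genes summed to 3.91 and 15.1 CPM in stage 4 embryos G and H and to 0, 0.267 and 0.332 CPM in D, C and B, while all stage 15 embryos lay between 152.7 and 216.7 CPM. The 10 dorsoventral genes summed to 7.19 and 17.1 CPM in G and H and to 0.805 to 1.34 CPM in the other 3, while stage 15 embryos lay between 423.9 and 487.9 CPM. amos and CG16815, 2 genes with 0 reads at stage 15, followed the same division: amos had 5.05 and 9.18 CPM and CG16815 had 4.67 and 7.53 CPM in G and H, and both had 0 reads in B, C and D. For these genes the stage 4 mean is the mean of 2 unlike sets of embryos.

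All 8 tested Hox genes, which assign identity along the body axis, rose (median 10.41, none overlapping). abd-A averaged 360.7 ± 94.6 CPM at stage 15 with 2 reads at stage 4, Ubx averaged 136.5 ± 26.1 CPM with 2 reads, and Scr averaged 105.4 ± 26.5 CPM with 1 read. Abd-B, which patterns the posterior abdomen, had 2 reads at stage 4 and was uneven at stage 15. It had 1.84 CPM in embryo C and 44.8 CPM in embryo I, against 112.8 to 202.7 CPM in the other 6. abd-A was also lowest in C and I, at 218.1 and 207.1 CPM, against 384.4 to 466.2 CPM in the others.

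Muscle genes rose together. All 26 tested contractile and muscle regulatory genes rose (median 9.51, or 9.36 with bounds), and 4 of the 30 on the list did not pass the filter on low counts. Of the 26, 11 were at or under the floor in a stage. Mhc, the muscle myosin heavy chain, had 800.8, 1566 and 2587 CPM (lowest, median and highest) at stage 15, against 0.332, 0.345, 0.401, 1.01 and 1.65 CPM in the stage 4 embryos B, D, C, G and H. It rose by 11.32 ± 0.72 on the log2 scale (SE, adjusted p = 2.02e-20), and its stage 15 range spanned more than 3-fold. Act57B, a muscle actin, averaged 2008 ± 475 CPM at stage 15 and 0.456 ± 0.502 CPM at stage 4. TpnC73F, a calcium-binding troponin C, averaged 168.0 ± 41.5 CPM at stage 15 and had 0 reads at stage 4, at least 2500-fold higher. Mlp60A, a muscle LIM protein, averaged 113.0 ± 60.6 CPM with 0 reads at stage 4, and the tropomyosin gene Tm2 averaged 199.2 ± 62.7 CPM with 2 reads. Actn and Zasp66 are uncertain, with 73.8 and 64.9% of reads on their own strand.

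Neurons and glia followed. Of 30 tested neuron and synapse genes, 28 rose and 2 fell (median 7.55, or 6.95 with bounds), and 14 of the 30 were at or under the floor in a stage. Of 11 tested glial genes 10 rose and 1 fell. Their median was 9.23, or 7.83 with bounds, and 5 of the 11 were at or under the floor in a stage. elav, the pan-neuronal RNA-binding protein, had 720.2, 881.8 and 1144 CPM (lowest, median and highest) at stage 15 and 0.332 to 0.401 CPM in the 5 stage 4 embryos. It rose by 11.20 ± 0.31 on the log2 scale (SE, adjusted p = 7.47e-36). VAChT, the vesicular transporter of acetylcholine, averaged 125.9 ± 20.4 CPM at stage 15 with 2 reads at stage 4. Syn, the synaptic vesicle protein synapsin, averaged 34.9 ± 9.74 CPM with 0 reads at stage 4. The 2 that fell, Csp and unc-13, act in synaptic release and were present at stage 4: Csp averaged 128.4 ± 6.62 CPM at stage 15 and 201.8 ± 5.34 CPM at stage 4, and unc-13 averaged 198.7 ± 38.5 and 291.8 ± 28.7 CPM. Among glial genes, repo, the glial homeodomain factor, averaged 63.9 ± 7.85 CPM at stage 15 with 2 reads at stage 4. gcm, the switch to glial fate, averaged 44.7 ± 8.79 CPM with 0 reads at stage 4, at least 665.4-fold higher. Gs2, a glutamine synthetase, averaged 114.5 ± 46.2 CPM with 1 read, and wrapper averaged 53.0 ± 9.71 CPM with 1 read. zyd fell by 0.60 ± 0.19 on the log2 scale (SE, adjusted p = 0.0026), and was not called with DESeq2's size factors.

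Cuticle, junction and matrix genes carried some of the highest levels. Of 33 tested cuticle and chitin genes, 32 rose and 1 fell (median 9.67, or 9.13 with bounds), and 22 of the 33 were at or under the floor in a stage. neo, a protein of the apical matrix, averaged 656.4 ± 176 CPM at stage 15 with 1 read at stage 4. mmy, which makes the sugar donor for chitin, was the 1 that fell, by 0.25 ± 0.11 on the log2 scale (SE, adjusted p = 0.0297), and its change was 0.00 with DESeq2's size factors. Of 70 genes of the Cpr cuticle protein family, 8 passed the filter on low counts and the other 62 did not. All 8 were at or under the floor in a stage. The whole family summed to 66.7 to 92.7 CPM in stage 15 embryos and 0.367 to 1.26 CPM in stage 4 embryos, and Cpr11A, the most abundant of those named, averaged 31.2 ± 6.68 CPM at stage 15 with 2 reads at stage 4.

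All 16 tested septate junction genes, whose products seal epithelia, rose (median 2.55, none overlapping). cora had 1704, 1924 and 2057 CPM (lowest, median and highest) at stage 15 and 1.77, 3.45, 7.53, 9.31 and 12.2 CPM in the stage 4 embryos G, B, H, D and C. Nrg averaged 1259 ± 100 CPM at stage 15 and 64.4 ± 14.3 CPM at stage 4, sinu averaged 252.4 ± 15.0 and 21.3 ± 3.36 CPM, and bou averaged 73.5 ± 13.99 and 2.13 ± 2.23 CPM. The 16 genes summed to 8116 to 9740 CPM in stage 15 embryos and already to 1608 to 1806 CPM in stage 4 embryos.

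Of 19 tested basement membrane and hemocyte genes, 18 rose and 1 fell (median 10.87), and 5 of the 19 were at or under the floor in a stage. LanA, the laminin alpha chain, had 5891, 6290 and 6968 CPM (lowest, median and highest) at stage 15 and 0.115 to 1.65 CPM at stage 4. LanB2, the gamma chain, averaged 1899 ± 105 CPM at stage 15 and 0.175 ± 0.108 CPM at stage 4, and Tig averaged 807.2 ± 166 CPM with 2 reads at stage 4. The 9 basement membrane genes summed to 12310 to 15980 CPM at stage 15 and 4.54 to 6.55 CPM at stage 4. crq, a scavenger receptor of macrophages, fell to 68.0 ± 8.89 CPM at stage 15, against 239.7 ± 15.4 CPM at stage 4.

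Of 17 tested genes of gut, fat body and salivary gland, 16 rose and 1 fell (median 8.20), and 8 of the 25 listed genes, mostly digestive enzymes and larval serum proteins, did not pass the filter. Of the 17 tested, 8 were at or under the floor in a stage. GATAe, a factor of the endoderm, averaged 126.8 ± 30.5 CPM at stage 15 with 0 reads at stage 4, at least 1887-fold higher. fkh, needed in salivary gland and gut, averaged 200.0 ± 24.0 CPM at stage 15 and 0.0982 ± 0.0689 CPM at stage 4. The salivary genes pip and PH4alphaSG1 averaged 272.8 ± 126 and 42.6 ± 23.1 CPM at stage 15 with 0 reads at stage 4, and both were lowest in embryo F. Fdh, the formaldehyde dehydrogenase, fell to 37.1 ± 7.17 CPM at stage 15, against 266.0 ± 17.2 CPM at stage 4. apolpp, the lipid carrier of the hemolymph and chosen after its values were seen, had 7318, 12350 and 17880 CPM (lowest, median and highest) at stage 15 and 7.89, 8.29, 14.3, 16.7 and 27.8 CPM in the stage 4 embryos C, B, H, D and G.

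Most genes of glycolysis and lactate metabolism were lower at stage 15 than at stage 4. Of 13 tested genes, 10 fell and 3, Ldh, Ald1 and ERR, rose (median -1.54). PyK, the pyruvate kinase, had 10.3, 18.3 and 29.1 CPM (lowest, median and highest) at stage 15 and 452.9, 455.2, 492.8, 593.9 and 631.7 CPM in the stage 4 embryos H, G, C, D and B. It fell by 4.76 ± 0.26 on the log2 scale (SE, adjusted p = 3.63e-23). Gapdh1, Gapdh2 and Tpi averaged 32.8 ± 8.24, 89.8 ± 29.3 and 30.0 ± 5.43 CPM at stage 15 and 408.2 ± 39.0, 1178 ± 276 and 251.3 ± 63.3 CPM at stage 4. All 10 that fell had a lower mean at a stage between the ends than at stage 15. Gapdh2 and Tpi had 2.90 and 0.538 CPM at stage 12, and Eno had 19.4 CPM at stage 12 and 406.4 CPM at stage 15. The rise was smaller for Pgi, with 46.4 CPM at stage 5 and 73.6 CPM at stage 15. Ldh, the lactate dehydrogenase, rose to 292.9 ± 54.0 CPM at stage 15, against 0.1002 ± 0.1055 CPM at stage 4, and the aldolase Ald1 rose to 578.1 ± 74.7, against 261.2 ± 23.3 CPM. ERR, the nuclear receptor that switches on larval glycolysis, averaged 10.3 ± 1.06 CPM at stage 15 and 6.94 ± 2.66 CPM at stage 4, and was not called with library totals alone.

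Large protein complexes moved as blocks, and in different directions. Of 81 tested cytosolic ribosomal protein genes, 80 rose and 1 fell (median 1.10), with 88520 to 104900 CPM in sum at stage 15 and 44040 to 52430 CPM at stage 4. All 31 tested proteasome genes fell (median -1.19), with 2309 to 2651 CPM in sum at stage 15 and 5628 to 6309 CPM at stage 4. Prosalpha4, of the core particle, averaged 40.0 ± 3.33 CPM at stage 15 and 226.6 ± 16.9 CPM at stage 4, and Prosalpha5 averaged 31.3 ± 4.43 and 161.7 ± 8.72 CPM. Under both other scalings the ribosomal count stayed at 80 higher and 1 lower, with medians of 1.34 and 0.77, and the proteasome count at 31 lower, with medians of -0.94 and -1.51.

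Mitochondrial genes were less settled. Of 67 tested nuclear genes of the respiratory chain, 63 rose and 1 fell (median 0.70), and with library totals alone 48 rose and 2 fell (median 0.38). Of 71 tested mitochondrial ribosomal protein genes, 44 rose and 3 fell (median 0.39, under the median of all genes), and the counts were 59 and 0 with DESeq2's size factors and 22 and 16 with library totals alone. mRpL2 averaged 38.1 ± 2.75 CPM at stage 15 and 13.2 ± 4.13 CPM at stage 4, and mRpS18A averaged 21.3 ± 4.34 and 28.6 ± 3.09 CPM. Of 15 mitochondrially encoded genes 7 rose and 1 fell, and 2 of the 15 did not overlap. The counts were 11 and 0 with DESeq2's size factors, 2 and 1 with library totals alone, and 4 and 1 with directional libraries only. mt:CoI averaged 6809 ± 982 CPM at stage 15 and 4158 ± 917 CPM at stage 4, mt:CoIII averaged 3366 ± 486 and 1932 ± 441 CPM, and mt:ATPase6, the 1 that fell, averaged 326.3 ± 47.6 and 453.3 ± 126 CPM. mt:ATPase6 was not called with DESeq2's size factors or without stage 4 embryo G or H.

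Heat shock, Polycomb and ecdysone genes split within their lists. Of 8 tested chaperones 4 rose and 3 fell (median 0.24, and -0.08 with library totals alone). Hsp26, Hsp27 and Hsp83, which ovaries load into the egg, averaged 9.11 ± 3.49, 51.7 ± 12.0 and 1228 ± 195 CPM at stage 15 and 903.9 ± 162, 537.4 ± 47.4 and 3779 ± 517 CPM at stage 4. Hsc70-3, the chaperone of the endoplasmic reticulum, averaged 2740 ± 231 CPM at stage 15 and 964.2 ± 48.6 CPM at stage 4, and Hsp23 averaged 23.8 ± 5.06 and 2.91 ± 1.15 CPM. Of 12 Polycomb group and chromatin genes 9 fell and 3 rose (median -1.08). esc averaged 9.11 ± 1.44 CPM at stage 15 and 98.9 ± 3.05 CPM at stage 4, while ph-p rose to 165.9 ± 16.3 CPM at stage 15, against 2.91 ± 1.09 CPM at stage 4, and Psc averaged 240.6 ± 27.7 and 143.8 ± 6.71 CPM. ph-p and ph-d are neighbouring copies and may have split reads.

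Of 16 tested genes of ecdysone synthesis and response, 13 rose and 2 fell (median 3.59). Hr4, a nuclear receptor of the response, had 1463, 1969 and 2361 CPM (lowest, median and highest) at stage 15 and 2.81 to 5.06 CPM at stage 4, and Hr3 averaged 21.3 ± 3.24 CPM with 0 reads at stage 4. ftz-f1, a receptor whose maternal product works with ftz in segmentation, averaged 2.62 ± 0.890 CPM at stage 15 and 195.1 ± 14.1 CPM at stage 4, and usp, the partner of the ecdysone receptor, averaged 64.1 ± 7.32 and 165.0 ± 12.1 CPM. The 7 synthesis genes with entries summed to 6.13 to 13.6 CPM at stage 15 and 0.345 to 1.26 CPM at stage 4, and all 6 that were tested rose. They were higher between the ends: spo reached 369.7 CPM at stage 5, and dib and phtm reached 152.3 and 138.7 CPM at stage 6.

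In several gene families the share of each member in the RNA level of a pair changed. Shares are of the levels per kilobase of exon, so that members of different length can be set side by side. The thioredoxin Trx2 made up 98.9 ± 1.04% of its pair with dhd at stage 15 and 3.88 ± 0.337% at stage 4, although Trx2 itself fell by 0.39 ± 0.14 on the log2 scale, a call that was lost with DESeq2's size factors. alphaTub84B made up 99.98 ± 0.0122% of its pair with alphaTub67C at stage 15 and 74.0 ± 5.75% at stage 4. Act57B made up 51.2 ± 7.64% of its pair with the cytoplasmic actin Act5C at stage 15 and 0.0364 ± 0.0398% at stage 4, while Act5C itself rose to 3241 ± 313 CPM, against 2085 ± 146 CPM. Of the myosin light chains, the muscle form Mlc2 made up 64.9 ± 6.395% of its pair with sqh at stage 15 and 0.427 ± 0.376% at stage 4, and the muscle form Mlc1 made up 43.2 ± 6.02% of its pair with Mlc-c and 0.103 ± 0.112%.

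Ribosomal protein RpS5a made up 89.5 ± 1.37% of its pair with RpS5b at stage 15 and 31.8 ± 3.75% at stage 4. RpS5a averaged 1412 ± 107 CPM at stage 15 and 293.2 ± 26.0 CPM at stage 4, and RpS5b, the 1 ribosomal protein gene that fell, averaged 114.2 ± 21.1 and 434.0 ± 51.7 CPM. The Cdc25 phosphatase stg, which starts mitosis in the cellular embryo, made up 99.5 ± 0.155% of its pair with twe at stage 15 and 62.2 ± 1.36% at stage 4. Both fell: stg averaged 191.5 ± 39.9 CPM at stage 15 and 420.8 ± 36.8 CPM at stage 4, and twe averaged 0.686 ± 0.208 and 198.2 ± 15.2 CPM. LamC, the A-type lamin of differentiated cells, made up 23.8 ± 2.55% of its pair with Lam at stage 15 and 10.1 ± 1.03% at stage 4. Cks30A, which acts in oocyte meiosis, averaged 3.21 ± 1.59 CPM at stage 15 and 79.2 ± 4.89 CPM at stage 4. The pair of Gapdh2 and Gapdh1 kept its proportions, with 73.4 ± 3.22% in Gapdh2 at stage 15 and 74.3 ± 3.598% at stage 4, while both fell. RpL22 made up 99.8 to 100% of its pair with RpL22-like on average at the 2 stages. These shares were not tested, and reads of near-identical copies may have been split or dropped in counting.

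Dosage compensation genes divided the stage 15 embryos. All 8 genes of the list were called, 4 higher and 4 lower. roX1 RNA had 1219, 1230, 1306 and 1490 CPM in the stage 15 embryos D, A, I and C and 102.6, 139.0, 174.6 and 179.2 CPM in F, G, B and H, against 0.345 to 2.75 CPM at stage 4. roX2 had 189.8 to 240.9 CPM in D, A, I and C and 13.4 to 29.0 CPM in F, G, B and H, with 1 read at stage 4. msl-2, whose protein is made in males, had 91.5 to 110.7 CPM in the same 4 embryos and 26.8 to 34.0 CPM in the other 4, against 3.91 to 6.79 CPM at stage 4. The helicase gene mle averaged 121.5 ± 18.5 CPM at stage 15 and 55.1 ± 6.97 CPM at stage 4. The genes msl-1, msl-3, mof and Clamp fell by 1.84, 1.43, 1.32 and 0.66 on the log2 scale. At stage 15 mle had 125.5 to 145.9 CPM in D, A, I and C and 98.5 to 118.8 CPM in the other 4. mof had 46.1 to 58.7 and 27.4 to 39.1 CPM in the same sets, which overlapped in msl-1, msl-3 and Clamp. The labels give no sex, and the groups of embryos seen here enter no test.

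The X chromosome lost share. X-linked genes held 17.3 ± 0.548% of the counts of X-linked and autosomal genes at stage 15 and 19.4 ± 0.173% at stage 4 (exact permutation test, two-sided p = 0.001554, adjusted 0.00194, n = 8 and 5). At stage 15 the share was 16.5 to 17.6% in the embryos A, C, D and I and 17.3 to 17.98% in B, F, G and H, and every embryo was under the stage 4 embryos, which lay between 19.1 and 19.6%. Among genes tested, 47.2% of 1607 X-linked genes rose and 39.9% fell (median log2 0.17), and 53.6% of 7985 genes of the autosomal arms rose and 35.1% fell (median 0.50). Among tested genes, 71.1% of the X-linked had at least 10 CPM at stage 15 and 64.5% at stage 4, and 67.6% of the autosomal had that level at stage 15 and 57.6% at stage 4. Over all tested genes the ratio of the X-linked to the autosomal median level was 1.21 ± 0.0493 at stage 15 and 1.74 ± 0.0523 at stage 4. Over the 924 X-linked and 4023 autosomal genes with at least 10 CPM at both stages it was 1.08 ± 0.0208 and 1.12 ± 0.0224 (exact permutation p = 0.0249), a ratio chosen after seeing the data. Of 86 tested genes on chromosome 4, 65 rose and 13 fell (median 1.49).

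Gene length and class went with direction. When tested genes were put into 5 bins of equal size by the span from start to end, 69.5% of the longest bin (8788 bases and over) rose and 21.5% fell, with a median log2 change of 2.26. In the 3 middle bins 44.7 to 46.9% rose, with medians between 0.04 and 0.12. In the shortest bin (up to 1319 bases) 57.4% rose and 27.8% fell, with a median of 0.73. Among classes of the annotation, 339 of 382 non-coding RNA genes and 116 of 119 snoRNA genes rose, against 4621 of 9137 protein-coding genes. Many snoRNAs lie in introns of host genes, so reads of host precursors can be among theirs.

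The 6 stages in between placed these changes in time. Of the genes that rose by more than 2 on the log2 scale, 45.1% had passed the midpoint between their end levels, on a log scale, by stage 5 and 16.5% passed it at stage 13. Of those that fell by as much, 41.9% had passed it by stage 5 and 19.5% at stage 13. Genes that rose did not all peak at stage 15: 46.3% of the 5164 had their highest stage mean there, and 9.61% had it at stage 5. Of the 3489 that fell, 51.0% were highest at stage 4 and 28.9% at stage 5. elav had 0.365 CPM at stage 4, reached its highest mean at stage 13 and stood at 899.4 ± 128 CPM at stage 15, while CG10591 had 1.83 CPM at stage 12, 141.6 CPM at stage 13 and 1932 ± 172 CPM at stage 15. Prosalpha4 was highest at stage 5.

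A comparison of the ends alone misses genes that move and return. Of the 1130 genes not called between stages 15 and 4, 1110 differed across the 8 stages in the same fit. So did 9755 of all 9783 genes tested, so this count does not set the 1130 apart. Over the genes with a symbol, 55 of those not called were at least 4-fold above the mean of the 2 ends at a stage in between, and 228 were at least 4-fold below it. CG43725 had 205.0 CPM at stage 5, with 0 reads at stage 15 and 1 read at stage 4. Elba1, part of a complex that insulates chromatin domains in the early embryo, had 741.1 CPM at stage 5, 0.0996 ± 0.120 CPM at stage 15 and 0.518 ± 0.948 CPM at stage 4. Z600, an inhibitor of mitosis in the ventral furrow, had 111.4 CPM at stage 5, with 1 read at stage 15 and 2 reads at stage 4. In the opposite pattern nebu had 210.1 ± 27.3 CPM at stage 15 and 236.8 ± 54.1 CPM at stage 4 with 1.40 CPM at stage 8 between them, and CG42514 and CG17896 behaved alike, with 19.3 and 65.4 CPM at stage 15, 18.7 and 79.2 CPM at stage 4 and 0.0554 and 0.435 CPM at stage 6. The called genes with the smallest change, mts and l(3)L1231, lay at -0.12 and -0.13 on the log2 scale, and both turned positive with DESeq2's size factors but stayed negative with library totals alone.

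**Figure D5:**
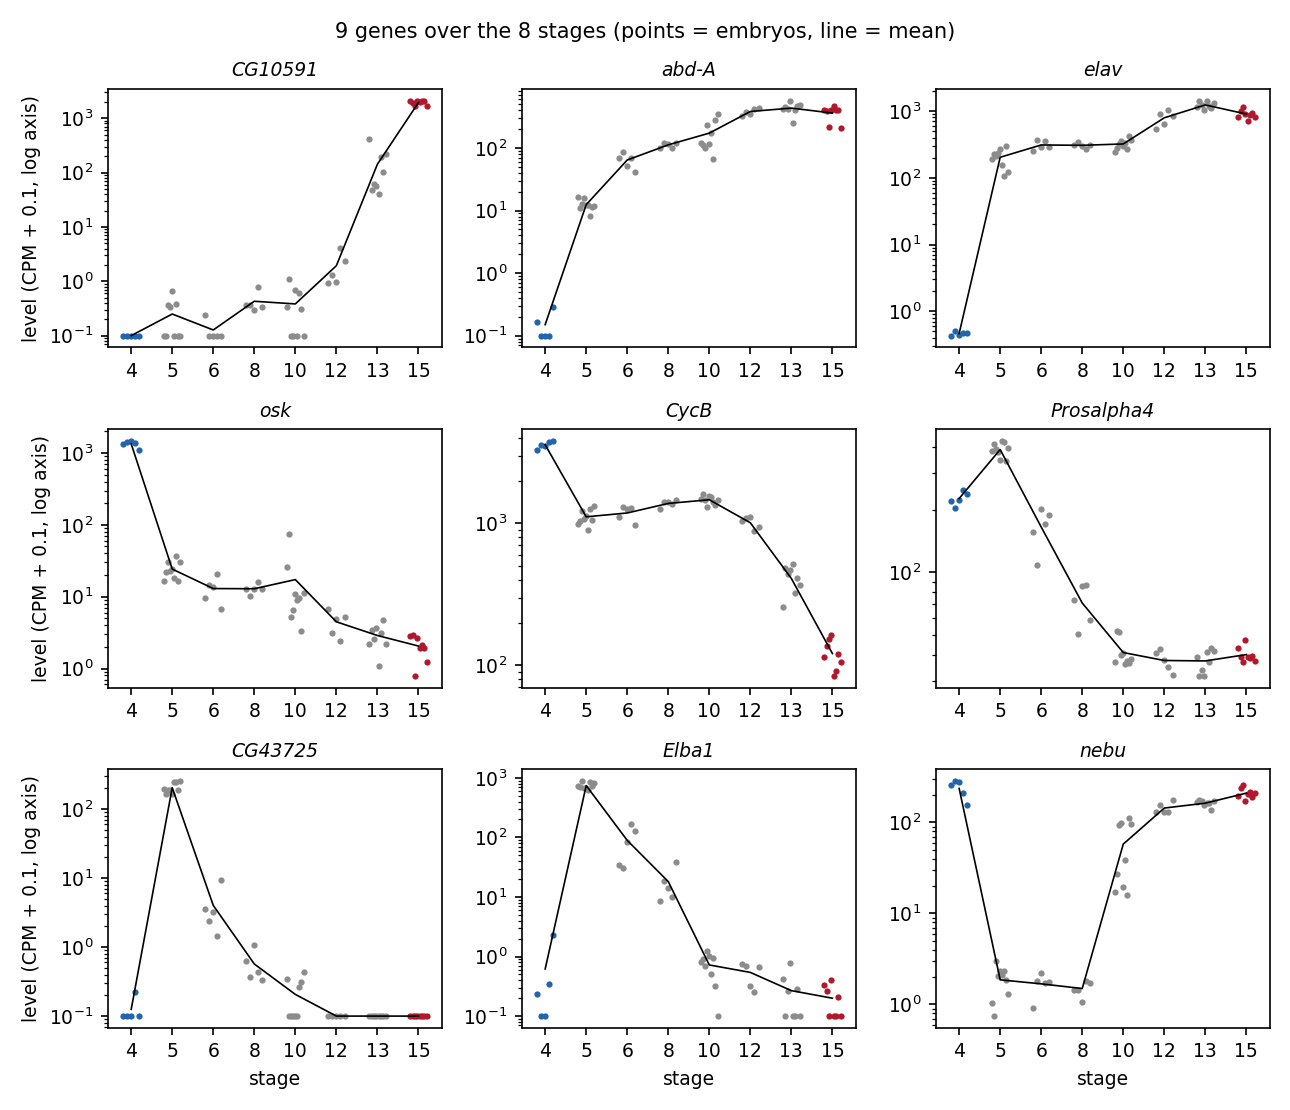
Level of 9 genes in every embryo of the 8 stages, in CPM plus 0.1 on log axes, with stage 15 and stage 4 embryos in colour, the stages between in grey and lines through the stage means. The top row is higher at stage 15 than at stage 4, with a late rise (CG10591) or an early one and the highest mean at stage 13 (abd-A, elav). The middle row is lower at stage 15 than at stage 4, with Prosalpha4 highest at stage 5. The bottom row shows CG43725 and Elba1 high at stage 5 and nebu low between the 2 ends.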

How the data were processed

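The authors deposited a table of whole-number counts of reads per gene for each embryo, in the layout of an aligner's count output. STAR 2.5.3a and the dm6 build are named, per the submitters' processing notes. No source used here gives the annotation that was counted. Summary entries were left out of library sizes and tests. Symbols and positions came from the BDGP6.54 annotation. The stage label alone formed the groups.

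All 54 embryos entered a quasi-likelihood fit in edgeR 4.0.16 (R 4.3.3) with 1 coefficient for each stage, after TMM scaling and edgeR's default filter on low counts. Calls are Benjamini-Hochberg adjusted p under 0.05 over 9783 genes, two-sided. The fit was also run on simulated counts in which few genes changed, evenly in both directions. Most genes changed in these data, so that run does not bear on these calls or their scaling. Measures per embryo were tested by exact permutation. Alternatives included DESeq2 1.42.0, other scalings and filters, directional libraries and leaving out each embryo. Folds against 0 reads use 3 reads over the stage, and such bounds and intervals cover counting error only.

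The gene lists, the rule for naming genes and the tests were chosen with earlier results of these data known. Named were the 12 highest and 12 lowest called genes with at least 10 CPM and no overlap, genes with 0 reads in a stage, up to 4 called members per list and direction, family pairs, genes moving between the ends and the 2 smallest called changes.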

Additional observations from a re-analysis of the deposited data

Results flagged for a closer look

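Values of 1 embryo that stood apart from the rest of its stage were looked for in the 5 measures and the named genes with over 10 reads in the stage, by the gap to the nearest embryo as a share of the whole range. Of 250 sets of values 16 were picked out, and chance alone picks out about 1 in 20. None of the 5 measures was among them. At stage 15 these were CG4991 in embryo C (1.84 CPM, others up to 0.300), mtrm in H (3.66, others up to 0.923), krimp in I (3.35, others up to 1.69) and fs(1)Ya in A (2.31, others up to 1.15), all maternal transcripts at low levels. They were also tud in D (516.8 CPM, others from 562.5), brk in B (135.3, others up to 113.9), fkh in I (254.2, others up to 200.6), Prosalpha5 in D (40.9, others up to 32.9) and Mlc-c in H (134.9, others from 145.4). Embryo G was highest for 2 small heat shock genes, Hsp23 (34.4 CPM, others up to 25.6) and Hsp26 (17.1, others up to 10.6). At stage 4 they were Elba1 in H (2.20 CPM, others up to 0.252), bou in C (6.01, others up to 1.84), Orc6 in B (31.6, others up to 27.5), Lam in G (332.6, others up to 284.3) and Hsc70-3 in H (879.3, others from 975.6). None of these genes changed its call when the embryo concerned was left out.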

How the results depend on the processing

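Calls numbered 4953 to 5198 higher and 3428 to 3593 lower when each embryo was left out in turn. Without a filter on low counts 7813 of 15940 genes were called higher, and in a test against a log2 change of 1 the genes called lower numbered 1717. All other settings kept both counts within 1.5 times. With library totals, chosen after seeing the data, 4608 were higher and 4135 lower. The differences in the 5 measures kept their direction and their side of the threshold in every setting run. Of 148 named genes, 124 kept their call in all 23 settings. tud, bel and brat turned to -0.12, -0.12 and -0.15 with library totals, and lost their calls without 9, 10 and 10 of the 13 single embryos. mmy stood at 0.00 with DESeq2's size factors. mts turned to 0.12 with DESeq2's size factors and its test, to 0.01 in a fit of the 13 embryos and to 0.07 with the replicate block and without it in the same 10 embryos, and l(3)L1231 to 0.11, 0.00 and 0.04 in the same settings. Embryos of the 2 stages that share a title letter had correlations of -0.029 to 0.026 between their deviations from the stage means. Such values cannot show whether embryos of the same letter share a collection or a batch. A replicate block over the 5 shared letters gave 4403 higher and 3104 lower, against 4431 and 3142 without it. Alternatives on promoter motifs were not run, since sequences were not used here. Low levels rest on few reads, and the library kind cannot be told apart from stage except within the 9 directional libraries (4718 higher, 3459 lower).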

Other observations

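Some stage 15 embryos had far less of some transcripts than the stage 15 median. Of 5505 genes with a stage 15 median of at least 20 CPM, 24 had an embryo under an eighth of that median, and 11 of these were lowest in embryo F and 7 in embryo C. The search was made after the values were seen and has no test. Some of the 24 were low in more than 1 embryo. CG31463 had 1.53, 2.62 and 5.56 CPM in F, G and B, l(2)03659 had 5.84 and 6.36 CPM in D and B, and roX2 was low in B, F, G and H. In embryo C the genes were Abd-B, byn, CG17780, CG17781, CG2663, CG33003 and CG6785. byn, the transcription factor of the hindgut, had 0.690 CPM in C and 14.9 to 38.6 CPM in the other 7. CG33003 had 0.460 CPM in C against 28.3 to 139.1 CPM, and CG17781 had 0.690 CPM against 29.2 to 53.2 CPM. Embryo I was the next lowest for 6 of the 7, all but CG33003.

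In embryo F the genes included nur, PH4alphaSG1, PH4alphaSG2, CG13159, CG14756 and CG8708. The prolyl hydroxylase genes of the salivary gland PH4alphaSG1 and PH4alphaSG2 had 4.75 and 2.45 CPM in F, against 18.8 to 74.3 and 16.6 to 53.4 CPM in the others, and embryo G was the next lowest for both. The crystal cell genes PPO1 and PPO2, which encode prophenoloxidases, had 0.306 and 3.22 CPM in F, against 22.6 to 276.1 and 57.0 to 407.7 CPM in the others. Embryo A was the next lowest for both. The counts of the whole comparison without F or without C are within the range given above.

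Library kind went with the ribosomal RNA left in stage 15 libraries. The 28S rRNA pseudogene entry CR41609 had 3440 to 6436 CPM in the non-directional libraries A, B, F and G and 142.0 to 265.5 CPM in the directional libraries C, D, H and I, against 91.9 to 119.9 CPM at stage 4.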
